A study of Mus musculus with 11 samples.

Results

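The genes described here are 9 basic helix-loop-helix (bHLH) transcription factors of the neuronal lineage: Neurog1, Neurog2, Neurod1, Neurod2, Neurod4, Neurod6, Bhlhe22, Nhlh1 and Nhlh2. They were chosen by symbol, matched to the gene identifiers of the deposited count files, and all 9 were found among 46078 genes. All 9 also passed the count filter in each comparison, so every one of them was tested. Their read counts were followed across 11 RNA-seq libraries from embryos of the outbred CD-1 mouse strain.

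The libraries came from a pair of experiments around L3mbtl3, which encodes a chromatin protein with MBT domains that the series title describes as a binding partner of the Polycomb complex PRC1. In the first experiment, wild-type embryos were electroporated in utero at E12.5, in the dorsal telencephalon, with the plasmid pCIG2-L3mbtl3 (3 libraries, here L3mbtl3 gain) or with empty pCIG2 (3 libraries, here GFP control), and cells carrying GFP were collected by FACS at E15.5. All 6 of these libraries therefore came from electroporated and sorted cells, and only cells reached by the plasmid were sampled. In the second experiment, dorsal telencephalon was collected at E12.5 without sorting from embryos labelled L3mbtl3 knockout (-/-, 2 libraries), heterozygous (+/-, 2 libraries) or wild-type (1 library), and the heterozygous and wild-type libraries together formed the E12.5 control. The labels do not say whether replicates came from separate embryos or litters, so the p-values measure the spread between these libraries only.

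Proneural bHLH factors start neuronal differentiation: they bind DNA at E-boxes (CANNTG) as dimers with ubiquitous E proteins, switch on Notch ligands, and activate a cascade of further bHLH genes. In the dorsal telencephalon Neurog2 and Neurog1 are the proneural factors of glutamatergic progenitors. Neurod1 and Neurod4 act in intermediate progenitors and newborn neurons, Nhlh1 and Nhlh2 mark young neurons, and Neurod2, Neurod6 and Bhlhe22 are expressed in postmitotic projection neurons.

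The stretch that defines the family is the DNA-binding basic region with the start of the first helix. The coding bases of that stretch are given below for each of the 9 genes, to show how alike the genes are where reads could be confused between them. They were read from the GRCm38 genome through the GENCODE M21 annotation, lie in coding exon sequence, and are written 5′ to 3′ on the gene's strand. Capitals mark the 16 bases that are identical in all 9 genes.
Neurog1, chr13:56251591-56251650, minus strand: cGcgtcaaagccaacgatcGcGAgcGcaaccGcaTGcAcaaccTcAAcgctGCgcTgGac
Neurog2, chr3:127634068-127634127, plus strand: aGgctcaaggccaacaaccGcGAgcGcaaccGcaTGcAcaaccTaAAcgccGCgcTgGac
Neurod1, chr2:79454672-79454731, minus strand: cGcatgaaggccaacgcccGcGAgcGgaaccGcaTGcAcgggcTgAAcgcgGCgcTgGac
Neurod2, chr11:98327908-98327967, minus strand: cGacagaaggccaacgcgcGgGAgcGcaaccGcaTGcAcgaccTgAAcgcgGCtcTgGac
Neurod4, chr10:130271080-130271139, minus strand: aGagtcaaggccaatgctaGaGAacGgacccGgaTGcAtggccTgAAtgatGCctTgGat
Neurod6, chr6:55679306-55679365, minus strand: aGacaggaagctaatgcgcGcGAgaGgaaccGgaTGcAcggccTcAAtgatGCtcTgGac
Bhlhe22, chr3:18055439-18055498, plus strand: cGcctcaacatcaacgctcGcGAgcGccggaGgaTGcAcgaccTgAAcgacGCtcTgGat
Nhlh1, chr1:172054010-172054069, minus strand: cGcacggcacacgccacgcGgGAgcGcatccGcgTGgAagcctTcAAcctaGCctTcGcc
Nhlh2, chr3:102012888-102012947, plus strand: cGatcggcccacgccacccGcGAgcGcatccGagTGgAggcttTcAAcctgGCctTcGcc
Over these 60 bases Neurog1 and Neurog2 were identical at 86.7%, the highest value among the 36 pairs. Neurod1 with Neurod2, and Nhlh1 with Nhlh2, were each identical at 85.0%, and the lowest value among all pairs was 43.3%. The longest exact stretch shared by the full transcripts of any pair was 26 bases, against a read length of 75 bases.

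Depth was similar across the series, with 16527551 to 26658718 counts assigned to genes per library. The pallial gene Emx1 was present in every library, at 68.8 to 160.4 CPM (read counts scaled to a common library size). L3mbtl3 itself measured 1517, 1261 and 891.7 CPM in the gain libraries, against 53.98, 49.98 and 59.48 CPM in GFP control libraries (log2 fold change 4.49, SE 0.217, edgeR adjusted p = 0.00136). In the libraries labelled knockout it measured 67.10 and 70.43 CPM, against 57.49 and 57.84 CPM in heterozygous libraries and 58.07 CPM in the wild-type library (0.27, SE 0.0539, edgeR adjusted p = 0.0128). Its transcript level therefore did not separate the libraries labelled knockout in the direction of their label. Where the deletion lies in the gene is not given in the sources used here, and every direction below from these libraries rests on the label alone.

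At E12.5 the whole family was lower in the libraries labelled knockout than in control tissue. All 9 genes had a lower estimate, and 5 of them fell in the edgeR quasi-likelihood test (Benjamini-Hochberg adjusted p under 0.05): Neurod1, Neurod4, Bhlhe22, Nhlh1 and Nhlh2. Over all 16361 genes tested, 3.78% were called lower and 3.63% higher in the same comparison, and the median over all genes was close to 0. Both libraries labelled knockout lay below all 3 control libraries for each of the 9 genes, an arrangement seen in 19.5% of all genes tested. The median log2 fold change of the 9 genes was -0.40. In bulk tissue, fewer cells of a type and less RNA per cell cannot be told apart.

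The proneural pair was lower in every library labelled knockout without passing the test. Neurog1, which acts with Neurog2 in dorsal progenitors, measured 13.70 and 14.09 CPM in the libraries labelled knockout, against 18.16 and 15.35 CPM in heterozygous libraries and 16.80 CPM in the wild-type library. Its estimate was -0.26 (SE 0.0886) and was not called (edgeR adjusted p = 0.104). Neurog2, the main proneural gene of the early pallium, measured 161.3 and 193.4 CPM in the libraries labelled knockout, against 224.7 and 200.7 CPM in heterozygous libraries and 215.5 CPM in the wild-type library. The second of the libraries labelled knockout lay only just under the lowest control, and the estimate of -0.25 (SE 0.0774) was not called either (edgeR adjusted p = 0.111).

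Genes of differentiating progenitors and young neurons fell. Neurod1, a Neurog2 target that drives neuronal differentiation, measured 49.20 and 49.58 CPM in the libraries labelled knockout, against 64.85 and 67.62 CPM in heterozygous libraries and 70.72 CPM in the wild-type library (-0.44, SE 0.0634, edgeR adjusted p = 0.00201). Neurod4, a related differentiation factor expressed here at a low level, measured 4.995 and 4.967 CPM in the libraries labelled knockout, against 8.343 and 8.848 CPM in heterozygous libraries and 8.903 CPM in the wild-type library. It had the most negative estimate of the called members, at -0.79 (SE 0.124, edgeR adjusted p = 0.00327). Its replicates lay close together in both groups, but the libraries labelled knockout held only 113 and 117 counts. At such counts, the closeness of 2 libraries says little about the spread. Nhlh1, a bHLH gene of newly born neurons, measured 81.96 and 80.19 CPM in the libraries labelled knockout, against 103.0 and 97.00 CPM in heterozygous libraries and 96.19 CPM in the wild-type library (-0.27, SE 0.0457, edgeR adjusted p = 0.00486). Its paralogue Nhlh2 measured 53.31 and 53.15 CPM in the libraries labelled knockout, against 62.47 and 66.91 CPM in heterozygous libraries and 67.80 CPM in the wild-type library (-0.29, SE 0.0633, edgeR adjusted p = 0.0185). The Nhlh2 call was the least stable of the 5: its adjusted p was 0.0720 without heterozygote replicate 2, 0.0539 without labelled knockout replicate 2, 0.0790 without the wild-type library and 0.0658 with a term for embryo sex.

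The genes of postmitotic projection neurons were lower as well, and of these only Bhlhe22 passed the test. Bhlhe22, a repressor that shapes the identity of postmitotic cortical neurons, measured 48.49 and 47.29 CPM in the libraries labelled knockout, against 66.85 and 78.05 CPM in heterozygous libraries and 73.23 CPM in the wild-type library (-0.59, SE 0.0765, edgeR adjusted p = 0.00151). Neurod6, a marker of pyramidal neurons, measured 152.2 and 129.9 CPM in the libraries labelled knockout, against 218.6 and 268.7 CPM in heterozygous libraries and 256.0 CPM in the wild-type library. Its estimate of -0.80 (SE 0.146) was the most negative of the 9, yet it was not called (edgeR adjusted p = 0.0635). Neurod2, which acts with Neurod6 in the same neurons, measured 71.61 and 64.91 CPM in the libraries labelled knockout, against 79.61 and 94.87 CPM in heterozygous libraries and 98.84 CPM in the wild-type library (-0.40, SE 0.116, edgeR adjusted p = 0.101). Without heterozygote replicate 1, which was the lowest control for both genes, Neurod6 stood at -0.90 and Neurod2 at -0.51, and both were called. Over all fits that left out a library, Neurod6 ranged from -0.91 to -0.69 and Neurod2 from -0.51 to -0.33. Of 12 alternative settings, 2 called Neurod6 and 3 called Neurod2.

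**Figure D1:**
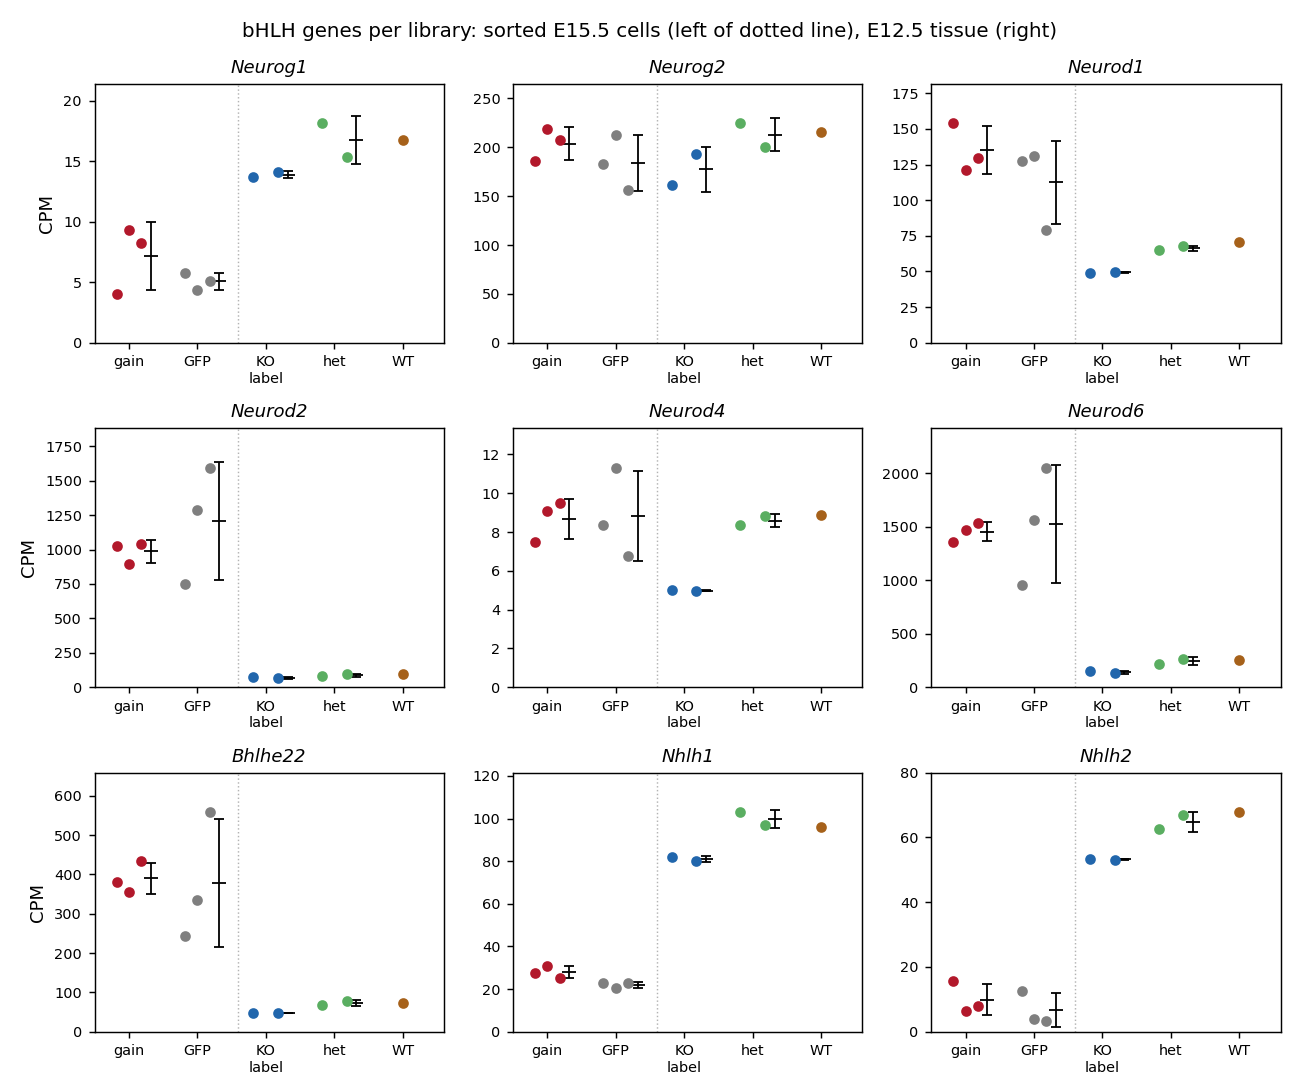
Level of each bHLH gene in every library, in CPM on linear axes that start at 0; each point is a library and the bar beside a group is its mean ± SD where there are replicates. At E12.5 both libraries labelled knockout (KO label) lie below all heterozygous (het) and wild-type (WT) libraries in each of the 9 panels, while at E15.5 the gain and GFP control libraries overlap in every panel but that of Nhlh1.

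The number of called members depended on the test. DESeq2 called 8 of the 9 lower, adding Neurog2 (adjusted p = 0.0107), Neurod2 (0.00131) and Neurod6 (3.46e-05), against 3.19% of the genes it tested. When all 11 libraries shared a single edgeR fit, no member was called, against 0.0176% of genes called lower there. The estimates themselves barely moved in that fit, with Neurod1 at -0.44, Neurod4 at -0.79, Bhlhe22 at -0.59, Nhlh1 at -0.27 and Nhlh2 at -0.29.

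Markers of some other cells moved in the same E12.5 libraries. Of 13 ventral telencephalic and GABAergic genes tested 3 rose, and the 16 genes of that list summed to 199.8 to 210.6 CPM in the libraries labelled knockout, against 135.8 to 165.7 CPM in E12.5 control libraries. Dlx2, which defines ventral progenitors, measured 13.08 and 12.95 CPM in the libraries labelled knockout, against 6.100 and 9.831 CPM in heterozygous libraries and 6.392 CPM in the wild-type library. Of 10 choroid plexus genes tested 7 fell and 1 rose, with list sums of 513.5 to 514.0 CPM in the libraries labelled knockout, against 808.5 to 873.4 CPM in E12.5 control libraries. The apical progenitor list summed to 3665 to 3987 CPM in the libraries labelled knockout, against 3614 to 3824 CPM in E12.5 control libraries. Of its 12 genes 2 fell and 1 rose. The dorsal pallium list summed to 1466 and 1587 CPM in the libraries labelled knockout, against 1594 to 1624 CPM in E12.5 control libraries, and 1 of its 10 genes fell. The pan-neuronal list summed to 2247 to 2477 CPM in the libraries labelled knockout, against 2615 to 2830 CPM in E12.5 control libraries, and 5 of its 15 genes fell. The Cajal-Retzius list summed to 350.1 and 368.2 CPM in the libraries labelled knockout, against 373.8 to 431.1 CPM in E12.5 control libraries. None of its 7 genes was called, and none of 12 microglia genes. Of 12 endothelial genes 1 fell, and of 9 meninges genes 1 fell. None of the genes of these lists was at 0 in the libraries labelled knockout, and their part in the lower bHLH levels was not tested.

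**Figure D2:**
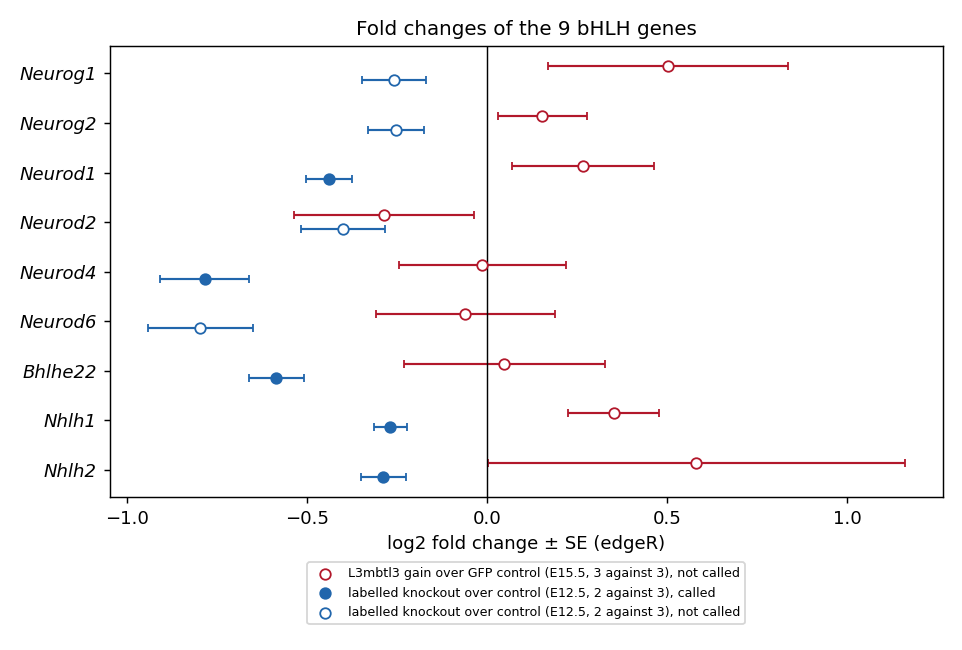
Log2 fold changes of the 9 bHLH genes with their standard errors, for L3mbtl3 gain over GFP control at E15.5 and for the libraries labelled knockout over control at E12.5; filled points passed edgeR's adjusted threshold of 0.05 and open points did not. All 9 E12.5 estimates lie below 0, from -0.80 to -0.25, whereas the E15.5 estimates lie on both sides of 0, from -0.29 to 0.58.

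The genes around the family were examined through a pair of lists. The first held 19 bHLH partners and rivals, namely E proteins, Id proteins, Hes and Hey repressors and other lineage bHLH genes, of which 14 were tested at E12.5. In the libraries labelled knockout 3 of the 14 rose, 1 fell and 10 were not called, with a median of 0.13. The gene that fell was Tcf4, an E protein that dimerizes with proneural factors, at 893.5 and 872.0 CPM in the libraries labelled knockout, against 1040, 1109 and 1092 CPM in E12.5 control libraries (-0.28, SE 0.0473, edgeR adjusted p = 0.00495). The genes that rose included Id3, which sequesters E proteins (0.39, edgeR adjusted p = 0.00540), and Olig1, a factor of the oligodendrocyte lineage (1.59, edgeR adjusted p = 0.00757). Id3 measured 44.96 and 52.09 CPM in the libraries labelled knockout, against 39.58, 37.03 and 35.47 CPM in E12.5 control libraries. Olig1 was low, at 2.387 and 2.462 CPM in the libraries labelled knockout, against 1.157, 0.4916 and 0.6848 CPM in E12.5 control libraries. Olig1 was thus higher in the libraries in which the ventral list was also higher, and the part of ventral cells in this was not tested.

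The second list held 22 genes reported as targets of proneural factors, all of them tested. In the libraries labelled knockout 9 of the 22 fell and 0 rose, with a median of -0.15. At an unadjusted p under 0.05, 12 were lower and 1 was higher, and over all genes 22% passed that threshold in either direction. Eomes, the transcription factor of intermediate progenitors, measured 168.6 and 168.6 CPM in the libraries labelled knockout, against 223.2, 216.9 and 222.9 CPM in E12.5 control libraries (-0.38, SE 0.0360, edgeR adjusted p = 0.000146). Sstr2, a somatostatin receptor of migrating neurons and their progenitors, measured 29.71 and 26.62 CPM in the libraries labelled knockout, against 39.30, 42.38 and 44.01 CPM in E12.5 control libraries (-0.56, SE 0.0792, edgeR adjusted p = 0.00198). Elavl2, a neuronal RNA-binding protein, fell (-0.36, SE 0.0493, edgeR adjusted p = 0.00189), as did the vesicular glutamate transporter gene Slc17a6 (-0.37, SE 0.0626, edgeR adjusted p = 0.00452). The list shares 5 genes with the other lists used here (Eomes, Tbr1, Ebf2, Elavl4 and Dcx).

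**Figure D3:**
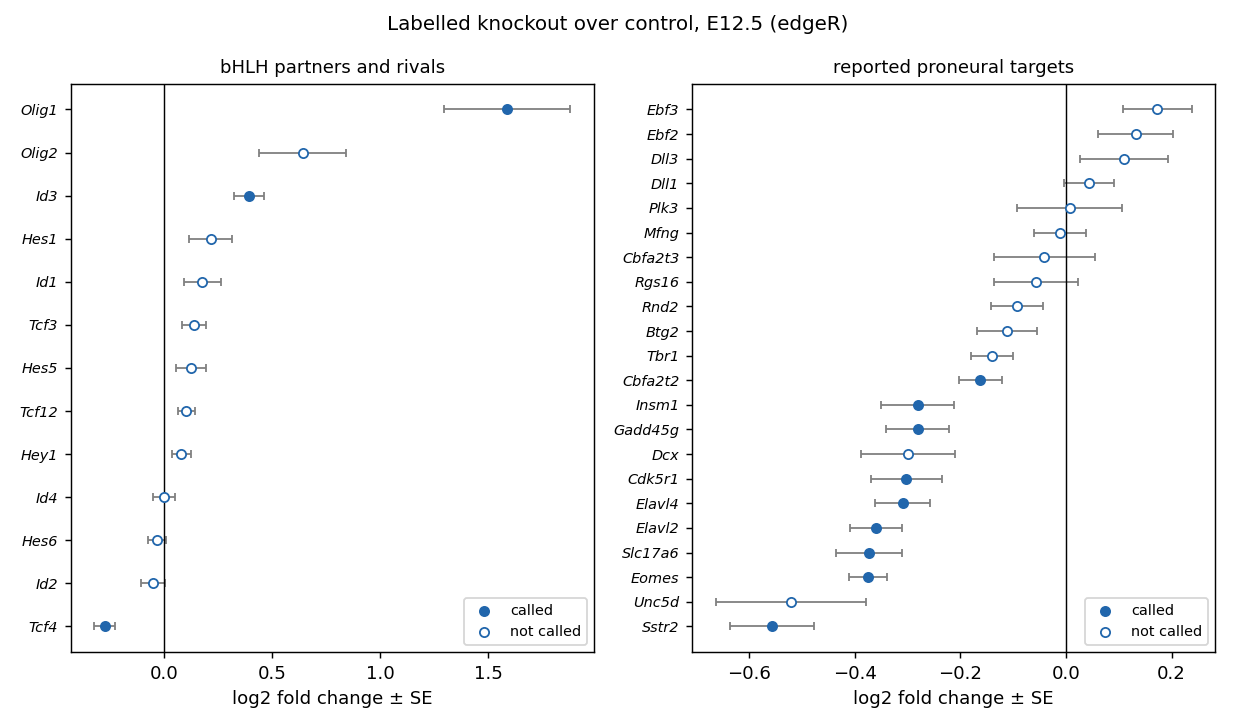
Log2 fold changes with standard errors in the libraries labelled knockout over control at E12.5, for 13 of the 14 tested bHLH partners and rivals (left) and the 22 reported proneural targets (right); filled points passed edgeR's adjusted threshold of 0.05. Of the genes shown on the left 2 rose and 1 fell, and on the right 9 fell and none rose.

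The promoters of the genes that fell at E12.5 were read from the RefSeq promoter table (GRCm38.p6) to show whether they carry the E-box that bHLH dimers bind. Entries were found for 8 of the 9 genes, and the gene without an entry was Bhlhe22. Those of Neurod1, Neurod4, Nhlh1 and Nhlh2 are given below, 5′ to 3′ on the gene's strand. They end at or before the gene's start and hold no exon bases. Of the pair of entries for Neurod4 the upstream one is shown. Capitals mark every CANNTG, which includes each CAGATG, the form that proneural factors favour, and its reverse complement CATCTG.
Neurod1, chr2:79456786-79456886, minus strand: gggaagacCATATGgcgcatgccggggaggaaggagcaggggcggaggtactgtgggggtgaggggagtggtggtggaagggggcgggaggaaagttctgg
Neurod4, chr10:130280255-130280504, minus strand: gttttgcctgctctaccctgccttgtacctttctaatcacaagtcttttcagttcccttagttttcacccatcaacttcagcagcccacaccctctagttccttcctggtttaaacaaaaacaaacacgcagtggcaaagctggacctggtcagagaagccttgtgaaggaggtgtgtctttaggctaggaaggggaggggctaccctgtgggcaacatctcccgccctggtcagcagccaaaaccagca
Nhlh1, chr1:172057597-172057846, minus strand: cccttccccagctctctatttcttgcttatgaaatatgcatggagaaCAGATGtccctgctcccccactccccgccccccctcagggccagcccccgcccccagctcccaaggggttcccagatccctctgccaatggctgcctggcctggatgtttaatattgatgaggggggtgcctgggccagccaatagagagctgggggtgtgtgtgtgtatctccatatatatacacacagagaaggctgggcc
Nhlh2, chr3:102009895-102010075, plus strand: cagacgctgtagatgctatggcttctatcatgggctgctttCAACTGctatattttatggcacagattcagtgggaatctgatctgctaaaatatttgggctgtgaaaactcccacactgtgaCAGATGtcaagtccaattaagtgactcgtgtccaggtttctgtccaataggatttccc
Nhlh1 held 1 CANNTG, which was a CAGATG, in the 250 bases before its start. Nhlh2 held 2 CANNTG, of which 1 was a CAGATG, in the bases searched. Neurod1 held 1 CANNTG and no CAGATG, and Neurod4 held neither. Among the members not called by edgeR, Neurod2 held 3 CANNTG, of which 1 was a CAGATG. Neurod6 held 2 CANNTG and no CAGATG, and Neurog1 and Neurog2 held neither. Of 32851 promoter entries searched over 250 bases, 66.2% held CANNTG and 14.4% held CAGATG or CATCTG, counted on both strands. These matches describe the letters of the windows and are not measured binding sites.

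In sorted E15.5 cells none of the 9 genes passed the test after L3mbtl3 gain. By edgeR 0 members were called, 1 was higher at an unadjusted p under 0.05 (Nhlh1), DESeq2 also called 0, and limma's voom with sample quality weights called 1. Over all 14698 genes tested the calls by edgeR numbered 2, or 0.0136%, while 1264 genes, or 8.6%, reached an unadjusted p under 0.05. The 9 estimates had a median of 0.15, with 6 above 0 and 3 below.

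Nhlh1 was the only member whose groups did not overlap, at 27.57, 30.91 and 25.35 CPM in gain libraries against 22.72, 20.45 and 22.69 CPM in GFP control libraries. Of all genes tested, 9.13% were likewise higher in all gain libraries than in every GFP control library. Its estimate was 0.35 (SE 0.127, edgeR adjusted p = 0.551), and voom with quality weights called it at 0.43 (adjusted p = 0.0257), a setting in which 9.35% of genes were called higher. Nhlh2 varied widely within both groups, at 15.60, 6.463 and 7.823 CPM in gain libraries against 12.72, 4.008 and 3.187 CPM in GFP control libraries (0.58, SE 0.579, edgeR adjusted p = 0.740). Its estimate depended on single libraries, at 1.48 without GFP control replicate 1 (adjusted p = 0.0795), 0.32 and 0.25 when the second or the third GFP control library was left out instead, and 0.11 without gain replicate 1.

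Neurog1 was low in all sorted libraries, at 4.006, 9.329 and 8.223 CPM in gain libraries against 5.730, 4.362 and 5.132 CPM in GFP control libraries. The first gain library lay below all GFP control libraries and the other two above them, which gave 0.50 with an SE of 0.333 (edgeR adjusted p = 0.646). Neurog2 measured 185.9, 218.6 and 207.1 CPM in gain libraries against 183.2, 212.9 and 156.1 CPM in GFP control libraries (0.15, SE 0.125, edgeR adjusted p = 0.697). Neurod1 measured 154.0, 121.3 and 129.8 CPM in gain libraries against 127.8, 131.1 and 79.09 CPM in GFP control libraries (0.27, SE 0.197, edgeR adjusted p = 0.673). For both Neurog2 and Neurod1 the third GFP control library was the lowest of the 6. Neurod4 measured 7.486, 9.068 and 9.479 CPM in gain libraries against 8.344, 11.32 and 6.753 CPM in GFP control libraries (-0.01, SE 0.232, edgeR adjusted p = 0.986).

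The genes of postmitotic neurons differed more among the GFP control libraries than between the groups. Neurod6 measured 1359, 1470 and 1539 CPM in gain libraries against 956.2, 1564 and 2053 CPM in GFP control libraries (-0.06, SE 0.249, edgeR adjusted p = 0.938). Neurod2 measured 1028, 893.2 and 1038 CPM in gain libraries against 747.5, 1284 and 1594 CPM in GFP control libraries (-0.29, SE 0.251, edgeR adjusted p = 0.713), and its estimate was -0.53 without GFP control replicate 1 (adjusted p = 0.0586) and -0.03 without GFP control replicate 3. Bhlhe22 measured 379.6, 356.2 and 433.8 CPM in gain libraries against 242.8, 334.0 and 558.2 CPM in GFP control libraries (0.05, SE 0.279, edgeR adjusted p = 0.956). In each case the first GFP control library was the lowest and the third the highest, and all 3 gain libraries lay between them. The median coefficient of variation over the 9 genes was 10.2% in gain libraries and 26.3% in GFP control libraries, and in the unsorted tissue 1.77% in libraries labelled knockout (n = 2) and 5.67% in E12.5 control libraries.

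The pan-neuronal list differed among the GFP control libraries in the same order, and the apical progenitor and ventral lists in the reverse order. Other lists, such as microglia, followed neither order. The pan-neuronal list summed to 9584, 9710 and 9592 CPM in gain libraries, against 8125, 9155 and 11610 CPM in GFP control libraries. The apical progenitor list summed to 1637, 1632 and 1652 CPM in gain libraries, against 2330, 1762 and 1023 CPM in GFP control libraries. The ventral and GABAergic list summed to 324.2, 292.9 and 41.80 CPM in gain libraries, against 1098, 393.0 and 40.14 CPM in GFP control libraries. Dlx2 measured 37.64, 28.66 and 1.428 CPM in gain libraries, against 143.9, 54.93 and 2.539 CPM in GFP control libraries. The first GFP control library thus had the highest ventral and apical progenitor sums with the lowest Neurod2, Neurod6 and Bhlhe22, and the third had the lowest of those sums with the highest levels of the 3 genes. The microglia and endothelial lists had lower estimates in the gain libraries, though edgeR called none of their genes. The microglia list summed to 14.5, 22.25 and 17.07 CPM in gain libraries, against 34.93, 66.6 and 57.64 CPM in GFP control libraries, and all 9 of its tested genes had a lower estimate, 8 of them at an unadjusted p under 0.05. The endothelial list summed to 22.72, 13.5 and 13.42 CPM in gain libraries, against 38.15, 33.48 and 22.53 CPM in GFP control libraries, and all 9 of its tested genes had a lower estimate, 5 of them at an unadjusted p under 0.05. The part of these cell types in the result was not tested. Without GFP control replicate 1 edgeR called 0 members and 415 genes, and without replicate 3 it called 0 members and 2 genes. The estimate of Bhlhe22 was -0.18 without replicate 1, and that of Neurod6 was 0.22 without replicate 3.

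**Figure D4:**
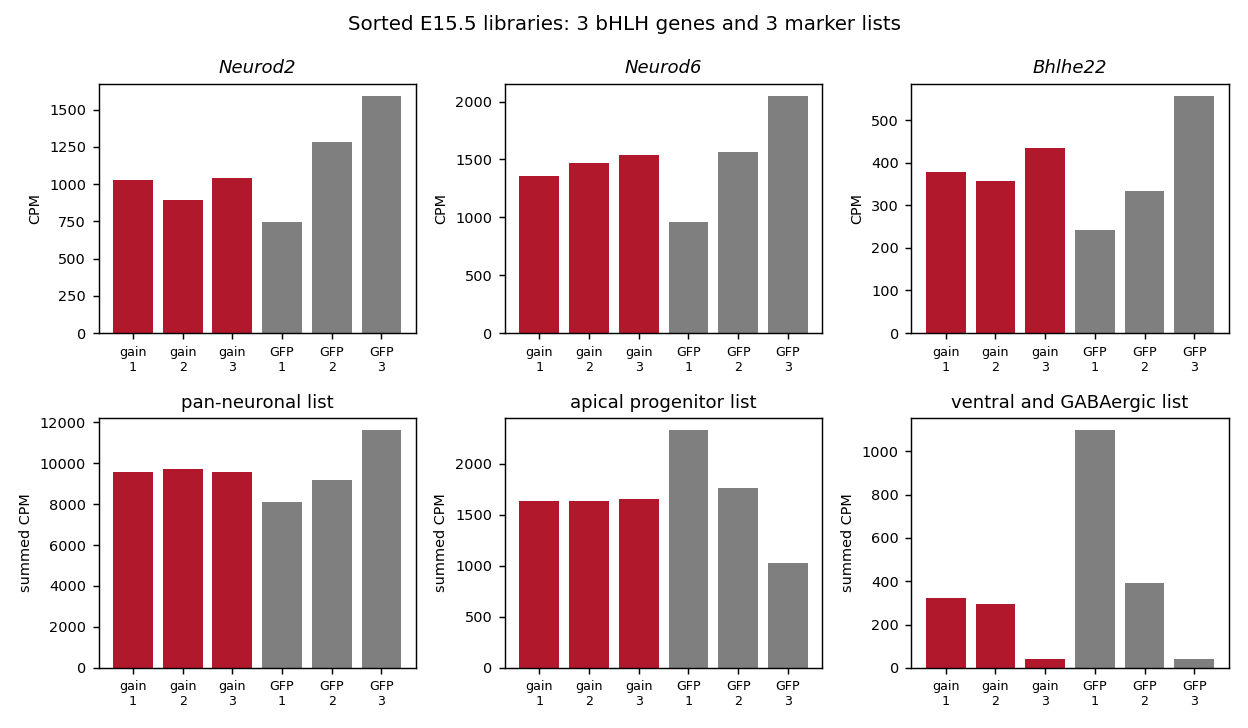
Level of Neurod2, Neurod6 and Bhlhe22 (CPM, upper row) and summed level of 3 marker lists (summed CPM, lower row) in each of the 6 sorted E15.5 libraries, 1 bar per library on axes that start at 0. Among the GFP control libraries, library 1 has the lowest bHLH and pan-neuronal bars with the highest progenitor and ventral bars, library 3 has the reverse, and the 3 gain libraries lie closer together for the bHLH genes.

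No gene of the partner and rival list was called after L3mbtl3 gain by edgeR, and 2 of the 14 tested had an unadjusted p under 0.05. Hes6, which counteracts Hes repressors, measured 135.2, 123.6 and 128.8 CPM in gain libraries against 155.1, 170.0 and 158.9 CPM in GFP control libraries (-0.32, SE 0.0791, edgeR adjusted p = 0.472). Tcf4 measured 1498, 1653 and 1773 CPM in gain libraries against 1164, 1235 and 1325 CPM in GFP control libraries (0.41, SE 0.107, edgeR adjusted p = 0.486). Neither pair of groups overlapped, an arrangement that 7.53% of all genes tested showed with gain libraries lower and 9.13% with gain libraries higher. The 22 proneural targets gave 0 calls by edgeR and 4 genes at an unadjusted p under 0.05, among them the netrin receptor gene Unc5d (0.37, edgeR adjusted p = 0.486) and the microtubule protein gene Dcx (0.35, edgeR adjusted p = 0.519). Of these 4 genes 3 were higher and 1 was lower. Over the whole list 8 estimates were higher and 14 lower, with a median of -0.06.

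The effect of L3mbtl3 gain minus the effect of the knockout label was tested in a single edgeR fit over both experiments. All 9 estimates were above 0, with a median of 0.70, and edgeR called 0 of them, while 4 had an unadjusted p under 0.05. The E12.5 estimates, all below 0, enter this difference with reversed sign, so its signs are not a result separate from them. Over all 17060 genes tested 29, or 0.17%, were called, 12.8% had an unadjusted p under 0.05, and the median was -0.04 with 54.4% of genes below 0. The smallest adjusted p among the members was that of Nhlh1, at a difference of 0.61 (SE 0.124, edgeR adjusted p = 0.0840). DESeq2 called Nhlh1 at 0.61 (adjusted p = 0.000555) and no other member, a setting that called 1.63% of genes higher. The difference for Nhlh1 was called at 0.66 without GFP control replicate 1, where 5.91% of genes were called higher, and at 0.64 without GFP control replicate 3, where 1.07% were. Nhlh2 was called only without GFP control replicate 1, at 1.78, and Bhlhe22 only without GFP control replicate 3, at 1.02. The experiments differ in stage, sorting and electroporation as well as in L3mbtl3, and these cannot be told apart in the difference. Among partners and rivals edgeR called 0 of 15 genes, with 4 at an unadjusted p under 0.05, led by Tcf4 at 0.68 (edgeR adjusted p = 0.0732) and Hes6 at -0.29 (edgeR adjusted p = 0.222). Among targets it called 0 of 22, with 10 at an unadjusted p under 0.05, led by Elavl2 at 0.65 (edgeR adjusted p = 0.0840) and Unc5d at 0.89 (edgeR adjusted p = 0.0956), against the 12.8% of all genes given above.

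Between the control groups the family split into genes that were higher in sorted E15.5 cells, genes that were higher in E12.5 tissue, and a pair that did not pass the test. The E15.5 GFP control libraries differ from the E12.5 control libraries in stage, sorting and electroporation, which cannot be told apart, and both groups also serve as controls in the comparisons above. By edgeR 4 members rose and 3 fell at E15.5, against 31.1% of 15968 genes called higher and 31.3% called lower, so that a call in either direction was common in this comparison. Scaling to library totals alone shifted the median of all genes to -0.30 and gave 3590 genes higher and 6525 lower, in place of 4963 higher and 4992 lower.

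The genes that rose were those of postmitotic neurons and Neurod1. Neurod2 averaged 1209 ± 428 CPM in GFP control libraries and 91.1 ± 10.2 CPM in E12.5 control libraries (SD, n = 3 each), a log2 fold change of 3.75 (SE 0.302, edgeR adjusted p = 0.000118). Neurod6 differed by 2.65 (SE 0.286, edgeR adjusted p = 0.000354) and Bhlhe22 by 2.41 (SE 0.307, edgeR adjusted p = 0.000705). Neurod1 rose by 0.76 (SE 0.191, edgeR adjusted p = 0.0125), but was not called with library totals alone (0.49, adjusted p = 0.0829) or without heterozygote replicate 1 (0.71, adjusted p = 0.0530).

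The genes that fell were Neurog1 and the Nhlh pair. Nhlh2 averaged 6.64 ± 5.28 CPM in GFP control libraries and 65.7 ± 2.86 CPM in E12.5 control libraries, a log2 fold change of -3.28 (SE 0.504, edgeR adjusted p = 0.00155). Nhlh1 differed by -2.14 (SE 0.0827, edgeR adjusted p = 2.09e-05) and Neurog1 by -1.70 (SE 0.159, edgeR adjusted p = 0.000195). Neurog2 was close to its E12.5 level (-0.19, SE 0.119, edgeR adjusted p = 0.199), although it was called lower with library totals alone (-0.46, adjusted p = 0.0219). Neurod4 measured 6.753 to 11.32 CPM in GFP control libraries, around its 8.343 to 8.903 CPM in E12.5 control libraries (0.04, SE 0.214, edgeR adjusted p = 0.886).

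Other cell types also differed in this comparison. All 7 Cajal-Retzius genes tested fell, and that list summed to 16.03 to 31.42 CPM in GFP control libraries against 373.8 to 431.1 CPM in E12.5 control libraries. All 10 choroid plexus genes tested fell, with list sums of 17.29 to 32.87 CPM in GFP control libraries against 808.5 to 873.4 CPM in E12.5 control libraries. All 9 meninges genes, all 9 erythroid genes and 11 of 12 endothelial genes tested fell too. Of 12 apical progenitor genes 8 fell, and of 15 pan-neuronal genes 14 rose. Their part in the bHLH differences was not tested. Of the 14 partners and rivals tested 2 rose and 7 fell, including Id3 (-4.50), Hey1 (-2.03), Id2 (2.39) and Hes6 (0.61). Of the 22 proneural targets 11 rose and 4 fell, including Insm1 (2.44), Unc5d (3.48), Dcx (1.67) and Ebf2 (-5.21), the last of which is also on the Cajal-Retzius list.

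Per kilobase of exon, the order of the levels differed between the experiments. In gain libraries it was Neurod6, at 676 ± 42.2 CPM per kb, then Neurod2, Bhlhe22, Neurog2, Neurod1, Nhlh1, Neurog1, Neurod4 and Nhlh2, at 1.84 ± 0.911 CPM per kb (SD, n = 3). GFP control libraries had the same order of means, but there Neurod6 overlapped Neurod2 and Bhlhe22 overlapped Neurog2. In both sorted groups the libraries of Neurog1 overlapped those of Neurod4, and those of Neurod4 overlapped those of Nhlh2. In libraries labelled knockout the order was Neurog2, Neurod6, Nhlh1, Neurod2, Neurod1, Bhlhe22, Nhlh2, Neurog1 and Neurod4, with no neighbours overlapping over 2 libraries. In E12.5 control libraries Neurod6 stood first and Neurog2 second, the rest followed in the same order, and only Neurod2 and Neurod1 overlapped. Neurog2 ranged from 72.4 to 86.9 CPM per kb and Neurod6 from 60.3 to 70.7 CPM per kb in libraries labelled knockout, against 90.1 to 100.9 and 101.5 to 124.7 CPM per kb in E12.5 control libraries.

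**Figure D5:**
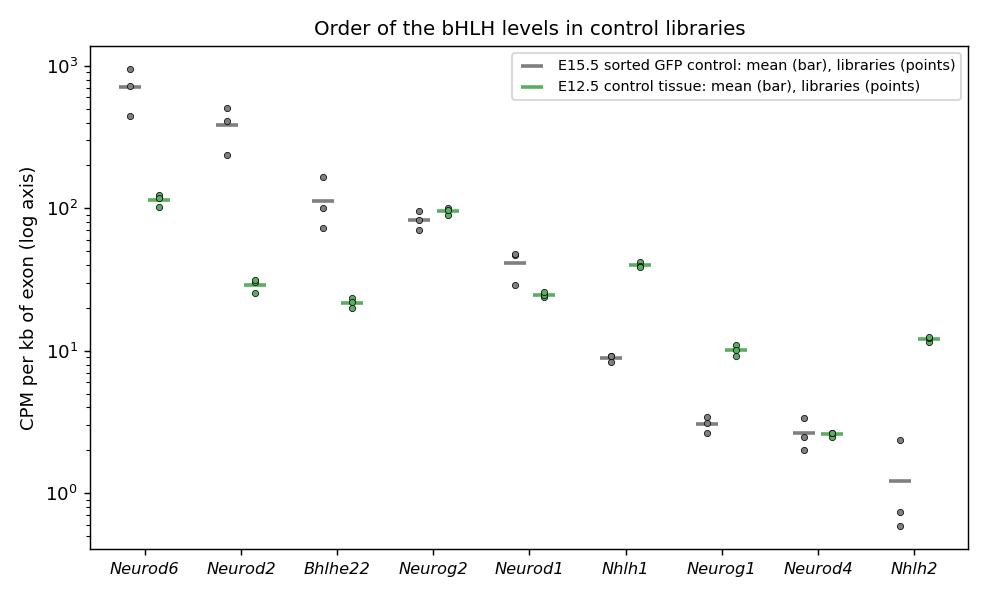
Level per kilobase of exon of the 9 bHLH genes in the sorted E15.5 GFP control libraries and in E12.5 control tissue, on a log axis; points are libraries and bars are means (n = 3 each). Genes are ordered by their mean in GFP control libraries: the 3 leftmost are higher at E15.5, Neurog2 and Neurod4 lie close together in both groups, and Nhlh1, Neurog1 and Nhlh2 are higher at E12.5.

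The makeup of the summed family level per kilobase followed the same split. Neurod2, Neurod6 and Bhlhe22 together made up 87.3 ± 0.67% of it in gain libraries and 88.6 ± 4.86% in GFP control libraries, and 40.3 ± 3.75% in libraries labelled knockout and 47.1 ± 3.36% in E12.5 control libraries. Neurog1 and Neurog2 made up 7.57 ± 0.73% in gain libraries and 6.92 ± 2.66% in GFP control libraries, and 34.9 ± 4.0% in libraries labelled knockout and 30.2 ± 2.64% in E12.5 control libraries. Nhlh1 and Nhlh2 made up 1.04 ± 0.14% in gain libraries and 0.83 ± 0.39% in GFP control libraries, and 17.0 ± 0.27% in libraries labelled knockout and 14.9 ± 0.78% in E12.5 control libraries. Each ± is an SD over 3 libraries, or 2 for the libraries labelled knockout. The summed level was 251.3 and 252.5 CPM per kb in libraries labelled knockout, against 338.3, 356.7 and 359.2 CPM per kb in E12.5 control libraries. These sums could not overlap, since both libraries labelled knockout lay below all controls for each gene, so this is not a further result.

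Genes with a like pattern over the 11 libraries were sought among 12562 expressed genes by Pearson's r of log2 CPM, after each experiment's mean was removed. The libraries within a group share their condition, so r describes likeness only. Differences between the groups of an experiment were not removed and enter r, as does the spread among GFP control libraries. The genes named outside the family are the highest out of 12562, so their r is high by selection. Neurod6 was most like Zbtb18 (r = 0.994) and Nsg2 (0.987), Bhlhe22 most like Ndrg4 (0.988) and Sult4a1 (0.976), and Neurod2 most like Paxx (0.984) and Dtx1 (0.978). Neurod1 was most like Rps6ka5 (0.975) and Slc17a6 (0.971), and Neurog2 most like Trip10 (0.917) and Eomes (0.895). Nhlh1 was most like Simc1 (0.969) and Sgpl1 (0.966), and Nhlh2 most like Swt1 (0.974) and Zfp811 (0.974). Neurog1 was most like Harbi1 (0.951) and Gm4735 (0.946), and Neurod4 most like Rnf217 (0.952) and Pde1b (0.943). Among the members themselves the highest values were Neurod6 with Bhlhe22 (0.933), Neurod2 with Neurod6 (0.884) and Neurod2 with Bhlhe22 (0.843), followed by Neurog2 with Neurod4 (0.790).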

How the data were processed

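Per the labels' protocols, poly(A)-selected stranded libraries were read from a single end for 75 bases. Values in the files are raw counts of reads assigned to each gene, which the authors made with featureCounts 2.0.1 in reverse-stranded mode on an Ensembl GRCm38 annotation, per the file headers. The annotation release is not given in the sources used here. The headers show no option to count multi-mapping or overlapping reads. HISAT2 2.2.1 and SAMtools 1.9 are named in the submitters' processing notes. The exon length per gene, another column of the deposited files, was used only for CPM per kb.

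CPM were computed with TMM factors over all 11 libraries, whereas each fold change comes from its own comparison's fit. Tests were edgeR 4.0.16 quasi-likelihood tests (robust, TMM, filterByExpr, two-sided) with Benjamini-Hochberg adjustment over all genes tested, and an adjusted p under 0.05 counted as called. SE is the log2 fold change divided by the square root of F. The scripts were tested on simulated data. Alternatives were DESeq2 1.42.0, limma 3.58.1 voom, scaling by library totals, no count filter, a replicate block, a fit of all 11 libraries, an embryo sex term (from Xist and Y-linked counts) and leaving out each library. Symbols were found for 45143 of 46078 gene identifiers. The members and gene lists were chosen with earlier results of these data known. Named genes are the 9 members, L3mbtl3, the defining markers Emx1 and Dlx2, per comparison up to 4 called genes with the smallest p in each of the partner and target lists (otherwise the 2 with the smallest p), and the 2 genes most like each member. Coding bases are shown in place of protein sequences, which were not used here. Some genes covered by this rule are not reported here. A CD15-positive E14.5 experiment named in the design text was not analysed here. Intervals of counting error are not given, since the spread between libraries is the error used.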

Additional observations from a re-analysis of the deposited data

How the results depend on the processing

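Replicate numbers were not used as pairs in the main tests. Same-numbered gain and GFP control libraries deviated together at r = 0.18, 0.01 and 0.257, and differently numbered ones at -0.271 to 0.115. Gain replicate 2 was most like GFP control replicate 1 (0.115). The ventral and GABAergic sums, though, fell with replicate number in both groups. Whether the numbers mark pairs is therefore not settled by these values. At E12.5 the same-numbered values were -0.008, 0.037 and 0.028. Deviations were taken from the group mean, so those of the 2 libraries labelled knockout mirror each other. The differently numbered values are therefore the same with reversed sign, and these values cannot show whether the numbers mark pairs. With the replicate block edgeR called 3 genes and 0 members after gain, and 453 genes higher and 495 lower at E12.5 with 5 members lower; the block turned the uncalled gain estimates of Neurod4 (0.0048) and Neurod6 (0.0037) above 0.

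After gain, 2 genes were called, against 122 by DESeq2, 97 in the fit of all libraries, 2120 by voom with quality weights (1 member higher), 1 with the sex term, and 0 to 415 when a library was left out (0 without GFP control replicate 2, where 693 had an unadjusted p under 0.05). Uncalled gain estimates changed sign for Neurog2 under voom (-0.0071), for Neurod4 (0.0411), Bhlhe22 (-0.0919) and Nhlh2 (-0.0519) with the sex term, and when a library was left out for Bhlhe22 (-0.1806 to 0.4442; -0.0412 without GFP control replicate 2, -0.0460 without gain replicate 3), Neurod4 (-0.1698 to 0.1962; 0.0864 without gain replicate 1) and Neurod6 (-0.2986 to 0.2185).

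At E12.5, 1213 genes were called, against 2266 with no count filter, 15 in the fit of all libraries, 654 with the sex term and 603 to 1785 with a library left out. Members called lower numbered 5, against 8 by DESeq2, 0 in the fit of all libraries and 4 to 7 with a library left out. In a fit without 1 library labelled knockout, the other is assumed to vary like the controls. The 9 estimates were below 0 in all 12 alternatives. Of the 2 libraries labelled knockout 1 was female by Xist and Y-linked counts, and all controls were male.

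For the control groups, Neurod4 changed sign with library totals (-0.228), without GFP control replicate 2 (-0.175) and without heterozygote replicate 1 (-0.0105), with a range of -0.175 to 0.1976 when a library was left out, and was never called. For the difference of effects 29 genes were called, against 469 by DESeq2 (1 member higher), 78 with no count filter and 2 to 1663 with a library left out (0 to 2 members higher); Neurod2 stood at -0.1247 without GFP control replicate 1 and at up to 0.3588 without another library. Scaling by library totals multiplied mean CPM by 0.915 to 0.939 in GFP control and by 1.10 in E12.5 control libraries. With 2 or 3 libraries a group, the spread itself is poorly known.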
